A study of Mus musculus with 194 samples.

Results

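The mitochondrial respiratory chain and the ATP synthase are built from subunits encoded in the nucleus and from a few encoded in mitochondrial DNA. The nuclear part was taken here as every gene of the expression table whose symbol begins with Ndufa, Ndufb, Ndufc, Ndufs, Ndufv, Uqcr, Cox4i, Cox5, Cox6, Cox7, Cox8 or Atp5. This name rule gave 88 of 23420 genes. By symbol 45 belonged to complex I, the NADH dehydrogenase, 8 to complex III, the cytochrome bc1 complex, 18 to complex IV, the cytochrome c oxidase, and 17 to the ATP synthase. Of the 88 genes, 10 are assembly factors or associated proteins rather than core subunits of the complex they are named for (Ndufaf1 to Ndufaf7, Cox7a2l, Atp5s and Atp5sl), and 8 are isoforms known from other tissues or from hypoxia.

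The genes were measured by Smart-Seq2, a full-length single-cell RNA-seq method, in single cells retrieved from a microfluidic trap array in which each founder cell had grown into a small lineage. The CD8 group held CD8+ T cells of C57BL/6J mice, activated for 30 h with plate-bound anti-CD3 and soluble anti-CD28 and then grown on the chip in medium with IL2. They came from mice of both sexes and a range of ages, and the labels do not tie a cell to a mouse. The L1210 group held a mouse lymphocytic leukemia line (ATCC CCL-219, strain given as DBA subline 212), grown on the chip without these stimuli. Because neither animals nor cultures are labelled, each group counts as 1 sample for a comparison between cell types, which therefore carries no test, and medium, strain, transformation and cell type cannot be told apart.

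Among the CD8 and the L1210 libraries, 4 and 2 were labelled as doublets, and 5 others of each had fewer than 1000 genes above 0. The 97 CD8 cells kept fell into 34 lineages, and the 81 L1210 cells into 26. Levels are in TPM, a unit of relative transcript abundance, which are scaled for transcript length, so that different genes can be compared, and which sum to the same total in every cell. TPM keep no read depth, and the quality metrics that the paper lists for each library were not used here. The number of genes above 0 stands in for depth. It lay between 2639 and 10905 in CD8 cells (median 6862) and between 1610 and 10454 in L1210 cells (median 8402). All 7 T-cell markers were found in CD8 cells, with a summed level of 987 to 6416 TPM against 0 to 75.6 in L1210 cells. Of the B-lineage markers, Vpreb1 and Igll1, which encode the surrogate light chain of precursor B cells, were found in L1210 cells and were at 0 in every CD8 cell. Cd79a, Cd79b and Ms4a1 were also B-lineage markers, and 1 or more of them was above 0 in 49 of 97 CD8 cells, with a sum of up to 283 TPM.

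Electrons enter the chain at complex I from NADH, pass by ubiquinone to complex III and by cytochrome c to complex IV, where oxygen is reduced, and the proton gradient built on the way drives the ATP synthase. Quiescent T cells rely on this route, and activation raises both glycolysis and mitochondrial biogenesis. Most nuclear subunits exist in a single form in every tissue, while some subunits of complex IV have second genes used in muscle, heart, lung or testis.

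Summed over all 88 genes, respiratory chain transcripts made up a similar part of the transcriptome in both cell types. The sum was 2.84% ± 0.925 of TPM in CD8 cells (SD over 34 lineage means) and 2.999% ± 0.356 in L1210 cells (SD over 26 lineage means), a gap smaller than the spread between CD8 lineages. Single CD8 cells ranged from 1.09% to 6.47% (median 2.63%), and L1210 cells from 0.0760% to 4.03% (median 3.07%). The highest CD8 cell was the only cell kept of its lineage, so it also set the highest CD8 lineage mean. The spread among CD8 cells moved with Rn45s, the ribosomal RNA precursor, which took 0.984% to 41.8% of TPM in CD8 cells and 11.4% to 79.3% in L1210 cells. Across CD8 cells the correlation between the sum and Rn45s was r = -0.92 (97 cells), and it was -0.86 when Rn45s was taken out of the total. Across L1210 cells r was -0.79, and -0.48 in the 77 cells with at least 4000 genes above 0. Rn45s reads are part of the total that scales every TPM value, and these points also share library and depth.

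**Figure D1:**
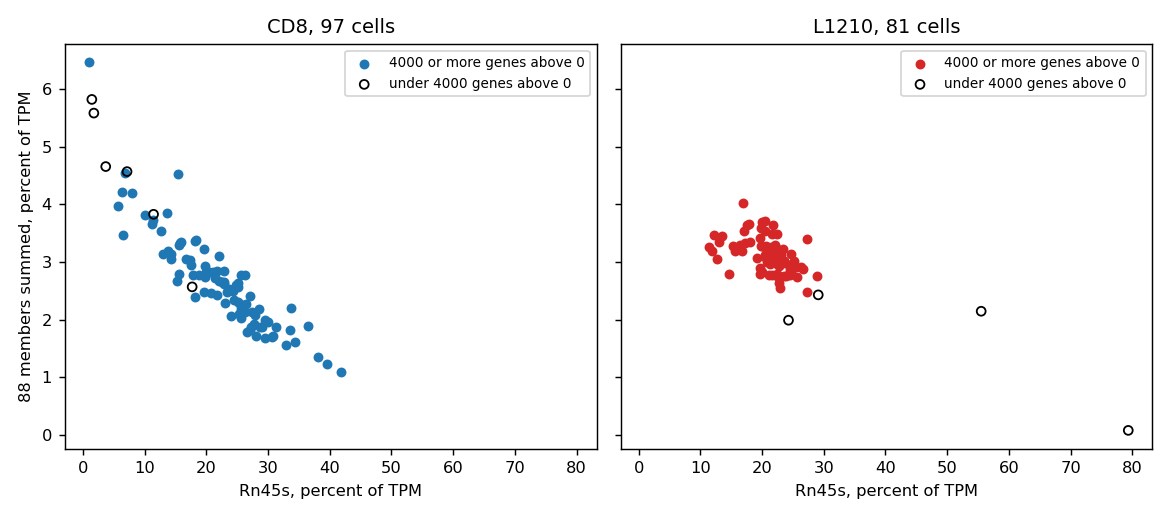
Summed level of the 88 respiratory chain genes (percent of TPM, y axis) against Rn45s (percent of TPM, x axis) in each CD8 cell (left) and each L1210 cell (right), with open circles for cells under 4000 genes above 0. In CD8 cells the sum falls from 6.47% to 1.09% as Rn45s rises to 41.8%, while the 77 L1210 cells with at least 4000 genes lie between 2.48% and 4.03%, and 1 L1210 cell lies at 0.0760%.

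One L1210 library, L1210_8, stood apart and had to be considered beside every L1210 result. Rn45s took 79.3% of its TPM, 2718 genes were above 0, and 78 of the 88 genes were at 0, including the complex IV subunit Cox4i1, which was above 0 in the other 80 L1210 cells. The library L1210_15 had 1610 genes above 0 and 54 of the 88 at 0, although the genes summed to 2.14% of its TPM. Without L1210_8 the L1210 sum was 3.06% ± 0.255.

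The makeup by complex was also similar. ATP synthase genes gave 34.8% ± 2.79 of the respiratory chain sum in CD8 cells and 31.8% ± 2.88 in L1210 cells. Complex I, which has the most genes, gave 30.3% ± 2.26 and 28.7% ± 1.23. Complex IV gave 24.8% ± 1.81 and 27.9% ± 2.32, and complex III gave 10.1% ± 1.23 and 11.7% ± 0.958 (SD over lineages). For each complex the ranges of the lineage means overlapped between the cell types.

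Within each complex a few genes stood well above the rest. In complex IV the highest mean was that of Cox4i1, the ubiquitous form of subunit IV, at 1492 ± 543 TPM in CD8 and 2833 ± 549 TPM in L1210 (SD over lineages), followed by Cox8a (895 and 897 TPM) and Cox5a (875 and 838 TPM). In the ATP synthase Atp5b, the catalytic beta subunit, led with 1384 ± 311 and 1443 ± 230 TPM. Next came Atp5g2 and Atp5d in CD8 (830 and 807 TPM) and Atp5a1, the alpha subunit, and Atp5g1 in L1210 (909 and 706 TPM). In complex III the leading genes were Uqcrc1, a core protein (552 and 628 TPM), Uqcrh (483 and 541 TPM) and then Uqcrq in CD8 (360 TPM) and Uqcr11 in L1210 (505 TPM). In complex I Ndufa4 led with 756 and 742 TPM, a gene named for complex I whose protein is known to sit with complex IV. It was followed by Ndufb8 (424 and 555 TPM) and by Ndufb6 in CD8 (365 TPM) and Ndufa2 in L1210 (487 TPM). The median gene lay at 192 and 176 TPM in complex I, 349 and 443 TPM in complex III, 345 and 366 TPM in complex IV, and 555 and 544 TPM in the ATP synthase. The 10 assembly factors and associated proteins were far lower, with medians of 25.6 and 28.9 TPM.

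The c subunit of the ATP synthase ring is encoded by 3 genes that give the same mature protein. All were expressed in both cell types. Atp5g1 was at 461 ± 242 TPM in CD8 and 706 ± 130 TPM in L1210, Atp5g2 at 830 ± 293 and 706 ± 115 TPM, and Atp5g3 at 720 ± 348 and 544 ± 140 TPM (SD over lineages). Atp5g1 was thus the lowest of the 3 in CD8 and level with Atp5g2 in L1210, though the lineages of both cell types overlapped for each gene.

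Few respiratory chain genes differed between the cell types by size. A gene was counted where the ratio of its mean TPM was 2-fold or more and its mean was at least 10 TPM in either cell type. Of 81 respiratory chain genes that reached this level, 5 (6.17%) were past 2-fold, against a background of 35.3% of all 7271 genes. Only 1 was higher in CD8 (background 11.3%) and 4 were higher in L1210 (background 24%). The median of all genes was shifted toward L1210, by -0.32 on the log2 scale, while that of the respiratory chain genes was -0.07. Divided by that shift, 7 of 81 genes were past 2-fold, against 32.3% of all 7271 genes (15.7% toward CD8 and 16.6% toward L1210). The 7 were Ndufa9, Ndufa3, Ndufb7, Ndufb10 and Ndufa13 toward CD8, and Cox4i2 and Cox7a1 toward L1210. Among genes of 100 TPM or more, a limit added after seeing the data, 1 of 69 respiratory chain genes (1.45%) was past 2-fold, against 28.0% of 1562 genes (13% toward CD8 and 15% toward L1210), and both medians lay near 0 (-0.04 and -0.02).

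**Figure D2:**
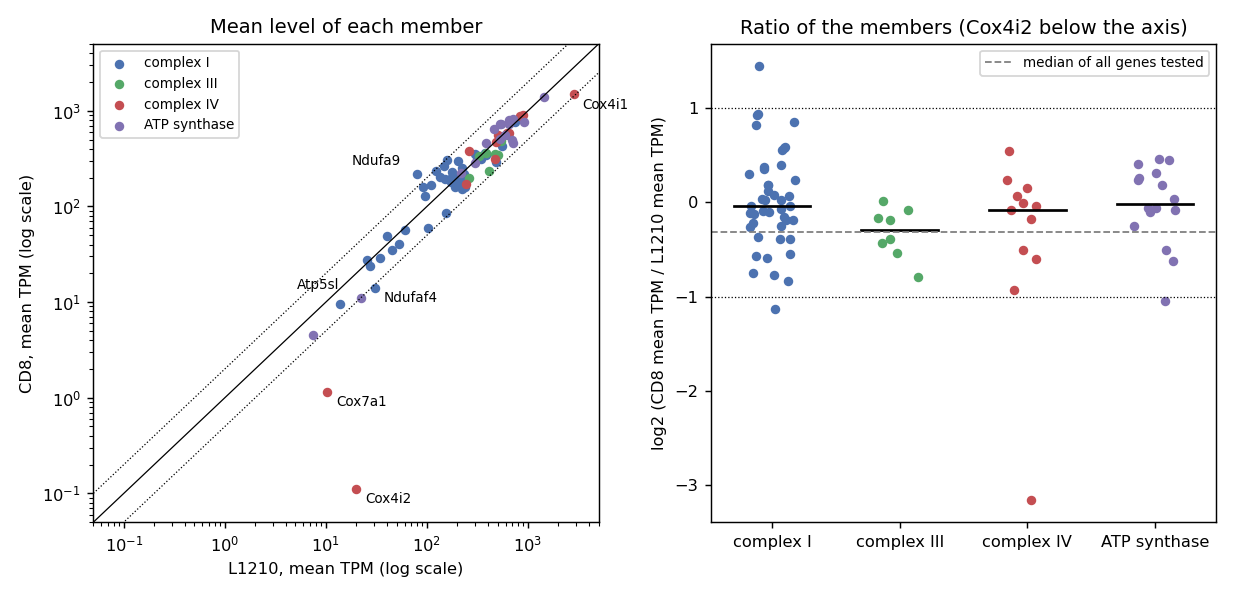
Left, mean TPM of each respiratory chain gene in CD8 (y axis) against L1210 (x axis), both on log scales, with dotted lines at 2-fold. Right, log2 of the ratio by complex with the median of each complex (black bars) and of all genes tested (dashed line, -0.32). Cox4i2 lies below the right-hand axis, and most genes lie between the dotted lines, while Ndufa9 lies above them and Cox4i2, Cox7a1, Ndufaf4 and Atp5sl lie below.

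Ndufa9, a complex I subunit of the NAD(P)-binding fold family, was the gene higher in CD8. Single CD8 cells held 0 to 1128 TPM (median 190) and L1210 cells 0 to 229 TPM (median 72.8). The means were 218 ± 125 TPM over 34 CD8 lineages and 79.9 ± 24.6 TPM over 26 L1210 lineages, a ratio of 2.73. The highest L1210 lineage (118 TPM) lay above the lowest CD8 lineage (78.04 TPM), so the groups overlapped. The gene spans chr6:126821721-126849136 on the minus strand of GRCm38, and an antisense transcript, 1700018A23Rik, overlaps it. The preparation does not mark strand, so reads of the overlap cannot be assigned to either gene. The next genes toward CD8 were Ndufa3 (236 and 123 TPM), Ndufb7 (303 and 160 TPM) and Ndufb10 (264 and 147 TPM), all accessory subunits of complex I and all under 2-fold.

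Toward L1210, Ndufaf4 and Atp5sl were low in both cell types. Ndufaf4, an assembly factor of complex I, was at 14.04 ± 10.7 TPM in CD8 and 30.7 ± 10.2 TPM in L1210. Atp5sl, which despite its name is known as a complex I assembly protein, was at 10.9 ± 12 and 22.5 ± 12.8 TPM (SD over lineages). The lineages overlapped for both genes, and neither was past 2-fold once the shift of all genes was taken out. Cox4i1 was 1.90-fold higher in L1210 and passed 2-fold only by the median over cells.

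The clearest difference lay in complex IV isoforms. Cox4i2, the form of subunit IV known from lung and from hypoxia, was above 0 in 1 of 97 CD8 cells (15.2 TPM) and in 59 of 81 L1210 cells, where single cells reached 97.5 TPM (median 14.6). Its mean was 0.11 TPM in CD8 and 19.8 ± 13.8 TPM in L1210, a ratio of 177 that rests on the single CD8 cell. Of 24 L1210 lineages with at least 2 cells, all but 1 had a cell above 0, and that one was the lineage of L1210_8. Even so Cox4i2 gave 0.639% of the sum of Cox4i1 and Cox4i2 in L1210 cells. It lies at chr2:152754173-152765037 on the plus strand (GRCm38).

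Cox7a1, the heart and muscle form of subunit VIIa, was above 0 in 7 of 97 CD8 cells (up to 24.6 TPM) and 26 of 81 L1210 cells (up to 146 TPM). Its mean was 1.16 ± 3.81 TPM in CD8 and 10.4 ± 18.5 TPM in L1210, an 8.93-fold ratio with overlapping lineages, while the ubiquitous form Cox7a2 stood at 311 ± 207 and 470 ± 78.02 TPM. Taken as a mean over cells instead of lineages, Cox7a1 fell under the limit of 10 TPM. Cox6a2, the heart and muscle form of subunit VIa, was listed at 0 in every CD8 cell and above 0 in 20 of 81 L1210 cells, up to 41.7 TPM, whereas the ubiquitous form Cox6a1 was at 767 ± 269 and 653 ± 143 TPM. The testis form Cox6b2 was above 0 in 4 CD8 cells and the heart and muscle form Cox8b in 2 CD8 cells, and both were listed at 0 in every L1210 cell. Cox7b2, Cox8c and the hypoxia-linked Ndufa4l2 were listed at 0 in every cell of both types. Of the 20 L1210 cells with Cox6a2, 19 also held Cox4i2, as did 40 of the 61 without it, while 7 of the 20 held Cox7a1, as did 19 of the 61. Of the 26 cells with Cox7a1, 22 held Cox4i2. Spearman's rho of the levels across the 81 L1210 cells was 0.16 between Cox4i2 and Cox6a2, -0.01 between Cox4i2 and Cox7a1 and -0.02 between Cox7a1 and Cox6a2. L1210 cells with Cox6a2 had a median of 9604 genes above 0, against 8231 in those without it.

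**Figure D3:**
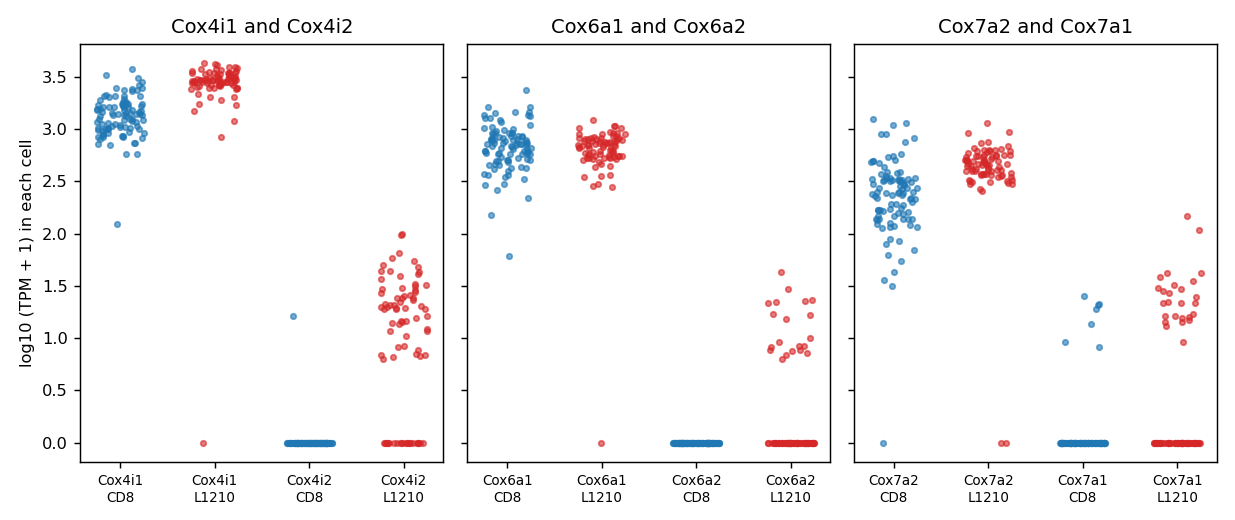
log10 (TPM + 1) in each cell for the ubiquitous and tissue forms of 3 complex IV subunits, with CD8 cells in blue and L1210 cells in red. The ubiquitous forms are high in nearly every cell of both types, Cox4i2 is above 0 in 59 of 81 L1210 cells and 1 of 97 CD8 cells, Cox6a2 in 20 and 0, and Cox7a1 in 26 and 7.

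Promoters of 4 of these genes are printed because they set the ubiquitous and tissue forms of complex IV subunits beside the gene with the highest ratio of CD8 to L1210. Promoter sequences, 250 bases before to 50 after the gene start, were available from RefSeq (GRCm38.p6) for 71 of the 88 genes. Cox4i1, Cox4i2 and Cox6a2 were not among them. Short motifs were searched on both strands: GCATGCGC, the core of the NRF1 site, CCGGAAG of ETS factors such as GABPA, GGGCGG of SP1, AAGATGGC of YY1, TGACGTCA (CRE) and TATAAA. Capitals mark the motifs found. The windows are chr5:115348909-115349208 (minus strand) for Cox6a1, chr9:79759804-79760103 (minus) for Cox7a2, chr7:30183921-30184220 (plus) for Cox7a1 and chr6:126849095-126849394 (minus) for Ndufa9.
Cox6a1: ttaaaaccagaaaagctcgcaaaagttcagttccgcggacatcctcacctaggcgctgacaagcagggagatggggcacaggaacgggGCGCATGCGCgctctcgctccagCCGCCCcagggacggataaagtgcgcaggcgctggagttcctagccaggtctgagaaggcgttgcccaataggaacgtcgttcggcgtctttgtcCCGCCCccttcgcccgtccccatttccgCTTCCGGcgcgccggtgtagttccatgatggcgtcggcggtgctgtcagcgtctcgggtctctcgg
Cox7a2: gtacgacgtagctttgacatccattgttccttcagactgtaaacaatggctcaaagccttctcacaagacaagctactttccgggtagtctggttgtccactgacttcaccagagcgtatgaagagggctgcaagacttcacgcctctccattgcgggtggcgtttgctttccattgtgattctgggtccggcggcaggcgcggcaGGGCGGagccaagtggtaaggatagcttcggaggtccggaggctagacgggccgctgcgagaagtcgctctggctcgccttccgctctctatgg
Cox7a1: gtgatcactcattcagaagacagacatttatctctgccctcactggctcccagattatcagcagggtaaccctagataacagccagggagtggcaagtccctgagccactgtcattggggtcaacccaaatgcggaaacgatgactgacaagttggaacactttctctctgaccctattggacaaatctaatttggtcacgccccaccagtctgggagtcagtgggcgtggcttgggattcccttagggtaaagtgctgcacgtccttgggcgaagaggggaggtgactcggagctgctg
Ndufa9: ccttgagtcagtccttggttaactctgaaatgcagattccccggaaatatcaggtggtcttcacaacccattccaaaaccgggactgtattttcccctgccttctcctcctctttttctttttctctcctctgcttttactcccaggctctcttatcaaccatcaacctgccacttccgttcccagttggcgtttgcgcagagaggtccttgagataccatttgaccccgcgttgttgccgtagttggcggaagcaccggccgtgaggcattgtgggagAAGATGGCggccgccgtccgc
The Cox6a1 window held the NRF1 core, which reads GCATGCGC on both strands from overlapping starts at bases 89 and 91, an ETS motif at base 235 and SP1 motifs at bases 112 and 207. The Cox7a2 window held an SP1 motif at base 207, the Ndufa9 window a YY1 motif at base 280, and the Cox7a1 window none of the 6. This did not set tissue forms apart. Among other tissue forms, SP1 was in the windows of Cox6b2 and Cox7b2, and TATAAA in those of Cox7b2 and Cox8b. The windows of Cox5b, Cox7b and Cox7c, which are not on the tissue list, also held none. Over the 71 windows, 11 (15.5%) held the NRF1 core, against 2.80% of 27025 promoters and 6.74% of the 4894 promoters of genes with 10 TPM or more over all cells. The YY1 motif was in 9 (12.7%), against 2.88% and 6.11%. The ETS motif was in 14 (19.7%), against 9.12% and 23.8%, and the SP1 motif in 31 (43.7%), against 35.9% and 65.7%. The CRE was in 4 (5.63%), against 1.88% and 3.43%, and TATAAA in 7 (9.86%), against 14.2% and 6.76%. In the 4 windows printed no motif overlapped another, apart from the NRF1 core with itself, and a match is a string in the window and not a measured site.

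Ndufs5, a subunit of complex I, was at 0 in far more cells than the other respiratory chain genes of its level. It was at 0 in 42 of 97 CD8 cells and 34 of 81 L1210 cells although its means were 86.4 ± 91.3 and 154 ± 103.9 TPM (SD over lineages). No other respiratory chain gene with a mean of 50 TPM or more (70 in CD8, 71 in L1210) was at 0 in over 25% of cells, against 58 of 2264 genes (2.56%) in CD8 and 14 of 2483 genes (0.564%) in L1210. Its transcript shared 36.3% of its 30-base words, the length of 1 read, with BC002163, a processed pseudogene on chromosome 16 that has its own row in the table. BC002163 was above 0 in 78 CD8 and 66 L1210 cells. Both genes were at 0 in 3 cells of each type, and Ndufs5 alone was at 0 in 39 CD8 and 31 L1210 cells. Spearman's rho between them was -0.33 across CD8 cells and -0.71 across L1210 cells. The SD of ln(TPM + 1) was 2.48 for Ndufs5 and 1.17 for the sum of both genes in CD8, and 2.79 and 1.19 in L1210. The summed mean was 207 TPM in CD8 and 419 TPM in L1210. The pair differed past 2-fold as a sum, but Ndufs5 alone did not (0.562 of the L1210 level). Single values of Ndufs5 are uncertain in this table. Whether its zeros came from reads assigned to BC002163 was not tested.

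**Figure D4:**
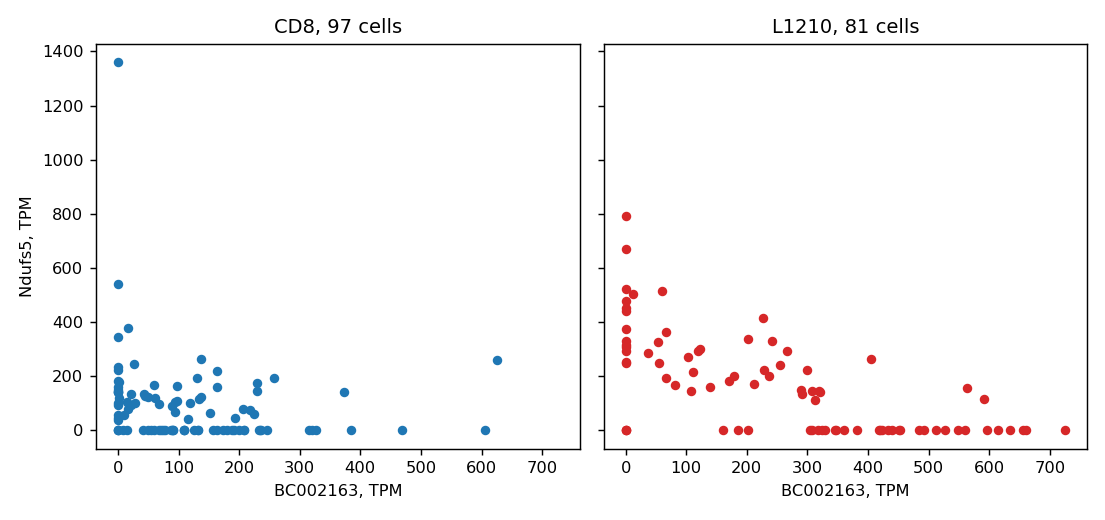
Ndufs5 (TPM, y axis) against its pseudogene BC002163 (TPM, x axis) in each CD8 cell (left, 97 cells) and L1210 cell (right, 81 cells). Cells spread along both axes, with 39 CD8 and 31 L1210 cells at 0 for Ndufs5 and above 0 for BC002163, and 3 cells of each type at 0 for both.

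Other genes also shared words with other annotated genes. The words were counted on both strands, so sharing them need not mean a copy. Cox7c shared 25.6% of its words with Gm10012, which was above 0 in 8 CD8 and 7 L1210 cells and gave under 1% of their sum. Ndufa13 shared 28.3% with Tssk6 and Uqcrc2 25.6% with Pdzd9, both in the table. Atp5l and Atp5h shared over 50% of their words with annotated copies that have no row in the table, so the effect on their values was not measured.

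The median spread from cell to cell was smaller than that of all genes above the same floor of level in CD8, and in L1210 only once cells of few genes were left out. The floor was 100 TPM in either cell type, and the median level above it was 315 TPM for the respiratory chain genes and 158 TPM for all genes in CD8, and 342 and 165 TPM in L1210, so the sets were not matched for level. Above this floor, the median SD of ln(TPM + 1) across CD8 cells was 0.842 for 69 respiratory chain genes and 1.11 for all 1536 genes. In L1210 it was 1.04 and 0.958 across all 81 cells, but 0.335 and 0.463 across the 77 cells with at least 4000 genes above 0. The same limit gave 0.637 and 0.918 in CD8. The order in L1210 thus turned on the 4 cells of few genes, L1210_8 among them.

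Correlation between respiratory chain genes across cells differed between the cell types in how far it rested on such libraries. In CD8 the median r over pairs of 80 genes was 0.19 across 97 cells (all 9997 genes 0.10), and 0.24 across the 91 cells with at least 4000 genes above 0 (all genes 0.07). It was 0.10 once the number of genes and Rn45s were removed by regression (all genes 0.01). In L1210 the median r was 0.45 across 81 cells (all 10536 genes 0.16) but 0.08 across the 77 cells with at least 4000 genes above 0 (all genes 0.07). Across all 81 L1210 cells abundant genes in general correlated. Among genes with a mean of 100 TPM or more in the cell type, the median r was 0.52 for respiratory chain genes and 0.40 for all genes. In CD8 it was 0.25 and 0.10 across all cells. In cells with at least 4000 genes above 0 these values were 0.08 and 0.04 in L1210, and 0.30 and 0.07 in CD8. Across all cells, genes of the same complex were no closer than genes of different complexes, with medians of 0.17 and 0.21 in CD8 and 0.44 and 0.45 in L1210. Cells of a lineage are not independent and all pairs share the same libraries, so these values are descriptions.

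To ask whether related cells resembled each other, lineage was fitted as a factor to ln(TPM + 1) across all genes by limma, with Benjamini-Hochberg adjustment, in lineages with at least 2 cells (27 CD8 lineages of 90 cells and 24 L1210 lineages of 79 cells). The share of variance that lies between lineages gives the size. Cells of a lineage also share a mouse or culture and a chip run, which the labels do not name. These cannot be told apart from descent. The number of genes above 0 itself had 0.452 of its variance between CD8 lineages and 0.365 between L1210 lineages, and Rn45s had 0.396 between L1210 lineages. In CD8, 10 of 80 respiratory chain genes (12.5%) passed adjusted p = 0.05, the same share as the background of 12.4% of 9997 genes. Among genes of 100 TPM or more, 9 of 69 (13%) passed, against 20.4% of 1536. By complex, 5 of 44 genes passed in complex I, 0 of 8 in complex III, where 2 had an unadjusted p under 0.05, 2 of 11 in complex IV and 3 of 17 in the ATP synthase. Of all 9997 genes, 2920 had an unadjusted p under 0.05.

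The gene with the lowest p in CD8 was Ndufaf6, a complex I assembly factor, with 0.43 of its variance between lineages (adjusted p = 0.000615, limma). It was above 0 in 62 of 97 cells. All 4 cells of the lineages of CD8_21 (23.7 to 87.1 TPM), CD8_29 (39.2 to 85.9 TPM) and CD8_38 (25.3 to 65.01 TPM) held it, while all 4 cells of the lineages of CD8_55 and CD8_71 and all 3 of the lineage of CD8_5 were at 0. Ndufaf6 passed under each other setting tried for it, sister pairs and ranks included (adjusted p 0.000584 to 0.00472), and with each lineage left out in turn (highest adjusted p 0.00266).

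The other 9 genes were abundant subunits: Atp5j2 (share 0.42, adjusted p = 0.0116) and the ring genes Atp5g1 (0.32, 0.0238) and Atp5g3 (0.35, 0.0466) of the ATP synthase, Cox5b (0.47, 0.0164) and Cox7a2 (0.32, 0.0257) of complex IV, Ndufa4 (0.42, 0.0239), and the complex I genes Ndufab1, which is also the mitochondrial acyl carrier protein (0.35, 0.0267), Ndufs6 (0.27, 0.0337) and Ndufb6 (0.27, 0.0441). The lineage of CD8_83 was high in several of them, and 1 of its 4 cells had 3392 genes above 0. Its 4 cells held 549 to 1515 TPM of Cox5b, 595 to 2199 TPM of Ndufa4, 366 to 1182 TPM of Atp5j2 and 593 to 1082 TPM of Atp5g1. The lineage of CD8_59 was low, with 206 to 488 TPM of Cox5b, 131 to 550 TPM of Ndufa4, 93.8 to 218 TPM of Atp5j2 and 91.9 to 189 TPM of Atp5g1. The cells of these lineages, named after their values were seen, did not overlap for any of the 4 genes. Without the lineage of CD8_83 5 of 80 genes passed (6.25%), while the background fell to 9.25%. Without that of CD8_59 or of CD8_49 6 did (7.5%), at backgrounds of 11% and 10.7%. Over the 27 lineages left out in turn, the call of Atp5g3 was lost in 14 fits and that of Ndufb6 in 13. Each of the other subunits lost its call in 4 fits or fewer.

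These 9 calls depended on the scale. With TPM rescaled without Rn45s, 3 of 80 genes passed (3.75%), at a background of 12.3%. Rn45s itself had 0.45 of its variance between CD8 lineages, and the summed respiratory chain share had 0.38, or 0.40 without Rn45s in the total. With sister pairs as the factor 1 gene passed (1.25%), at a background of 5.27%. With ranks in place of ln(TPM + 1), 44 of 80 genes passed (55.0%), against 22% of 9997 genes, but among genes of 100 TPM or more the shares were 62.3% of 69 and 53.1% of 1536. The share called was thus below that of all genes of 100 TPM or more on ln(TPM + 1) and above it on ranks. This order did not hold within each scale. With a pseudocount of 10 TPM on the ln scale the shares were 36.2% and 34.7%. With ranks without Rn45s they were 47.8% and 48.3%.

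In L1210, 9 of 83 genes (10.8%) passed, at a background of 12.9% of 10536 genes, and 5 of 69 (7.25%) among genes of 100 TPM or more, against 19.4% of 1530. They were Cox7c, Cox6b1, Cox6a1 and Cox6a2 of complex IV, Uqcrq of complex III, Ndufb3 of complex I, and Ndufaf1, Ndufaf7 and Atp5sl, which act in complex I assembly. For 7 of these, all but Cox6a2 and Atp5sl, the call was lost when the lineage of L1210_8 was left out. That lineage had 2 cells with 2718 and 4951 genes above 0, and both were at 0 for Cox7c, Uqcrq and Ndufb3, genes that were above 0 in 77 or 78 of the 81 cells. With it, Cox7c had 0.61 of its variance between lineages (adjusted p = 8.12e-06). Without it, the share was -0.06 (adjusted p = 0.822), 3 of 83 genes passed (3.61%) at a background of 4.91%, and 0 of 69 genes of 100 TPM or more at a background of 6.20%. Atp5sl was lost without the lineage of L1210_2 (adjusted p = 0.123). The call of Cox6a1 was lost in 12 of the 24 fits with 1 lineage left out, not only without that of L1210_8. With ranks, 6 of 83 genes passed (7.23%), at a background of 14.4%, and 3 of 69 (4.35%) at 29.4% among genes of 100 TPM or more.

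Cox6a2 was the exception. It had 0.50 of its variance between L1210 lineages (adjusted p = 0.000442, limma), and the call held with every lineage left out (highest adjusted p 0.00735) and in all alternative fits that tested it, from 0.000177 with a pseudocount of 0.1 TPM to 0.0294 with ranks, and at 0.0149 with the number of genes as covariate. Of 24 lineages of at least 2 cells, 15 had no cell above 0, 3 had 1 such cell and 6 had 2 or more, and these 6 held 17 of the 20 cells. In the lineage of L1210_5 all 4 cells held it, at 6.30 to 28.9 TPM, and in that of L1210_55 both did, at 5.90 and 41.7 TPM. In the lineages of L1210_9, L1210_11 and L1210_53 it was above 0 in 3 of 4 cells. Itgad, a gene on the opposite strand that overlaps Cox6a2 at chr7:128205435-128206387 (GRCm38), was at 0 in every cell. Cox4i2 and Cox7a1 did not pass (shares 0.07 and 0.20, adjusted p = 0.337 and 0.0894).

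**Figure D5:**
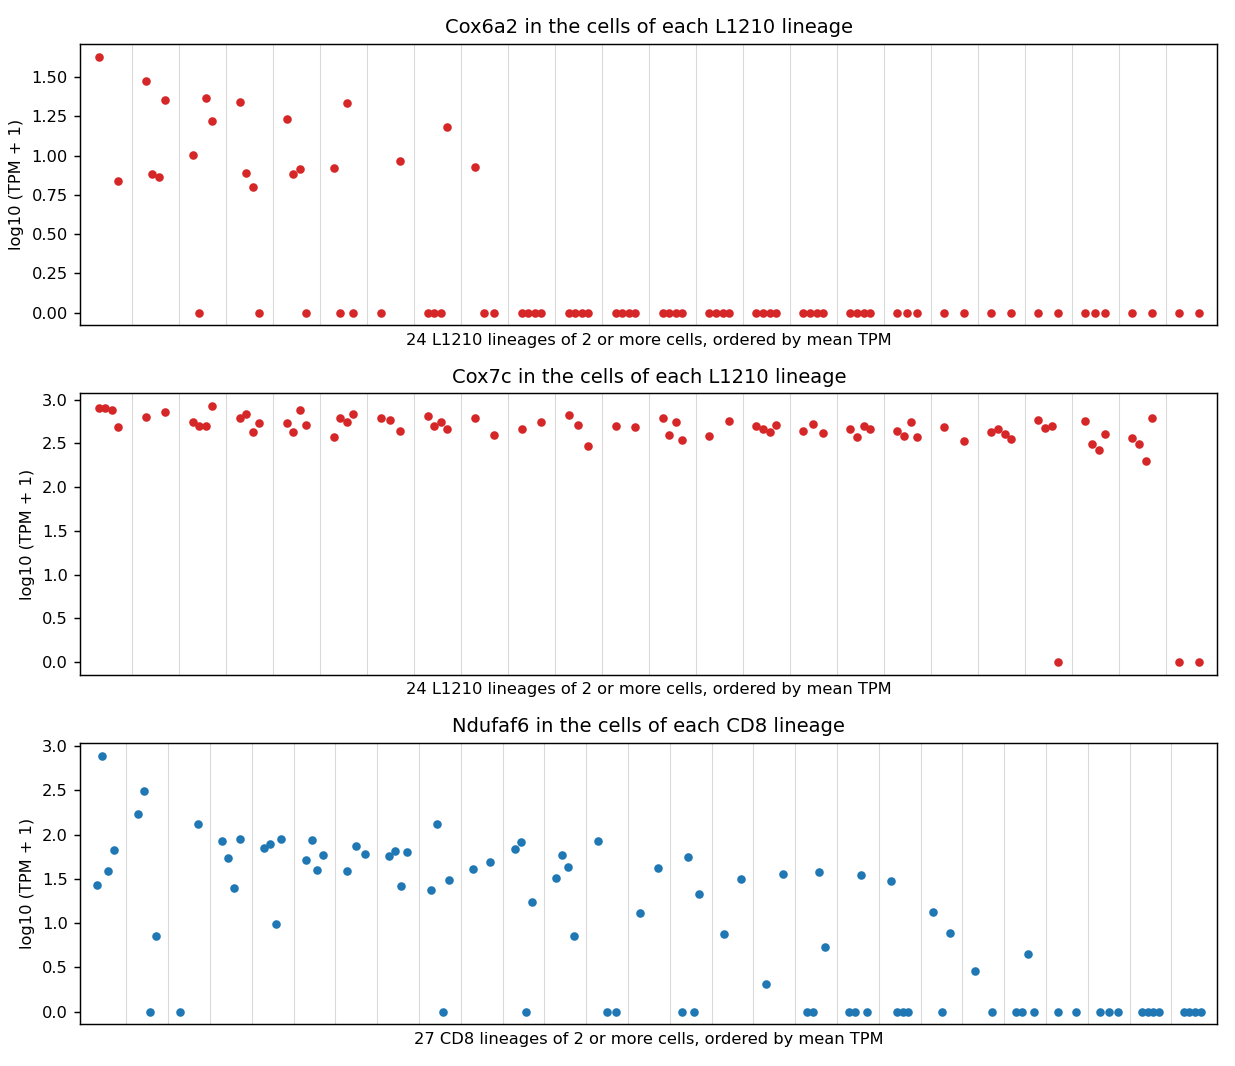
log10 (TPM + 1) of Cox6a2 (top) and Cox7c (middle) in L1210 and of Ndufaf6 (bottom) in CD8, with each point 1 cell and each slot 1 lineage of at least 2 cells, ordered by mean TPM. Cells with Cox6a2 gather in 9 of 24 lineages, Cox7c is at 0 in both cells of the last lineage, that of L1210_8, and in 1 other cell, and Ndufaf6 is at 0 throughout 4 of 27 lineages.

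Time since the last division was compared on lineage means, by limma against the mean hours of the lineage, since cells of a lineage share their history. No respiratory chain gene passed in either cell type. In CD8, 0 of 80 genes passed over 31 lineages (background 0.0400% of 9997 genes), and 4 had an unadjusted p under 0.05 (1306 of all 9997 genes). The lowest were those of Ndufaf4, with a slope of -0.17 ± 0.062 in ln(TPM + 1) per hour (SE, unadjusted p = 0.0104, adjusted p = 0.236), Uqcr10 of complex III (0.13 ± 0.054, adjusted p = 0.280) and Atp5l of the ATP synthase (0.11 ± 0.045, adjusted p = 0.296). In L1210, 0 of 83 genes passed over 26 lineages (background 0.00% of 10536 genes), and 1 had an unadjusted p under 0.05 (562 of all 10536 genes). This was Ndufs4, with -0.06 ± 0.026 per hour (adjusted p = 0.873). Atp5e and Ndufb8 followed (-0.06 ± 0.035 and -0.06 ± 0.032, both with adjusted p = 0.873).

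The signs of the slopes leaned in opposite directions in the cell types, and this difference was not tested. In CD8, 60 of 80 slopes were above 0, against 31.7% of 9997 genes, and 72 of 80 in cells with at least 4000 genes above 0, against 40.7%. With Rn45s out of the total 51 of 80 were above 0, against 28.2% of all genes. In L1210, 76 of 83 slopes were below 0, against 57.9% of 10536 genes, but 53 of 83 were (51% of all genes) without the cell L1210_8, which had been retrieved 10.4 h after division, and 42 of 83 (47.6% of all genes) in cells with at least 4000 genes above 0. The lean in L1210 thus rested on cells of few genes. Beside the CD8 lean, Rn45s correlated with hours at r = -0.34 across 94 cells and the respiratory chain sum at 0.30. Its part in the slopes was not tested beyond that rescaling.

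Other mitochondrial gene lists were counted in the same way, at the same background of 35.3% of all genes past 2-fold. The background was 11.3% toward CD8 and 24% toward L1210, and the shift of all genes toward L1210 was not taken out. Of 32 other subunits, carriers and assembly factors that reached 10 TPM, 7 (21.9%) were past 2-fold (2 toward CD8 and 5 toward L1210), with a median log2 ratio of -0.42. The largest ratios were those of Lyrm7, an assembly factor of complex III (3.21 and 11.4 TPM in CD8 and L1210), Tmem126b, of complex I assembly (21.3 and 8.47 TPM), and Cox20, of complex IV assembly (79.8 and 31.9 TPM). Of 8 regulators of mitochondrial gene expression that reached 10 TPM, 4 were past 2-fold, all toward L1210: Gabpa, a subunit of the ETS factor named above (10.1 and 25.6 TPM), Polrmt, the mitochondrial RNA polymerase (15.1 and 32.05 TPM), Tfb2m (14.7 and 30.1 TPM) and Pprc1 (33.3 and 66.7 TPM). In the pyruvate dehydrogenase and citric acid cycle list 2 of 16 were past 2-fold, both toward L1210, Ogdh (57.4 and 166 TPM) and Dld (48.5 and 117 TPM). Of 76 mitochondrial ribosome genes 3 were, Mrps35 toward CD8 (155 and 61.7 TPM) and Mrpl52 (63.1 and 145 TPM) and Mrpl38 (45.8 and 100 TPM) toward L1210. For lineage, 5 of 34, 0 of 10 (3 at an unadjusted p under 0.05), 3 of 16 and 11 of 76 genes of these lists passed in CD8 by limma, and 6 of 34, 2 of 10, 3 of 16 and 16 of 76 in L1210, at backgrounds of 12.4% and 12.9%. An unadjusted p under 0.05 was reached by 2920 of 9997 genes in CD8. Without the lineage of L1210_8, where the background was 4.91%, 0 of 34 (5 at an unadjusted p under 0.05), 0 of 10 (1), 0 of 16 (3) and 1 of 76 (14) passed in L1210 by limma. In that fit 2511 of 10652 genes had an unadjusted p under 0.05. No gene of these lists passed for time in either cell type, where 4, 2, 2 and 5 had an unadjusted p under 0.05 in CD8 and 3, 2, 0 and 8 in L1210 (limma). Over all genes, 1306 of 9997 in CD8 and 562 of 10536 in L1210 did.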

How the data were processed

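The authors sequenced Smart-Seq2 libraries of single cells with 30-base paired reads and deposited 1 table of TPM for 194 libraries, made with RSEM (version 1.2.3 per the processing notes) on mm10 UCSC genes. The notes also name bcl2fastq, TopHat2 and GenomeStudio. TPM keep no depth. Doublets and libraries with fewer than 1000 genes above 0 were left out, and lineages were joined from the sister and cousin labels. Genes entered the limma fits (R 4.3.3, limma 3.58.1) where over 10% of the retained CD8 or L1210 cells exceeded 1 on the ln scale, ln(TPM + 1), with 1 TPM as pseudocount. p-values measure the spread between cells or lineages, which may share a mouse or culture. The fits were also run on values shuffled over the cells gene by gene, with known effects added to some genes. Such a shuffle removes what genes share within a library, so it could not test calls that rest on single poor libraries. Named were the 3 highest genes of each complex, those past 2-fold, those called for lineage or time or else the 3 of lowest p, the tissue isoforms and the 3 ring genes, and in other lists the 3 of largest ratio or all past 2-fold. The genes and lists were chosen with earlier results of these data known. Coordinates are from GENCODE M21 and shared words from its transcripts. No protein sequence was used here. The summed level of the B-lineage markers in L1210 cells is not reported here.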

Additional observations from a re-analysis of the deposited data

How the results depend on the processing

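No paired analysis was possible because the numbers in the titles only name cells and the comparison between cell types comes from no test. The 5 genes past 2-fold between cell types became, with the share of all genes past 2-fold in parentheses, 12 with exp(mean ln(TPM + 1)) - 1 as the level (52.5%), 10 with medians over cells (48.3%), 8 with no filter on low values (59.4%) and 1 among genes of 100 TPM or more (28%), and stayed within 4 to 7 in the other 7 settings (32.3% to 43.7%). The 10 lineage calls in CD8 (12.4% of all genes) became 1 with a pseudocount of 0.1 TPM (10.7%), 26 with 10 TPM (15.2%), 18 with no filter (9.04%), 6 with hours as covariate (10.3%), 44 with ranks (22%), 34 with ranks without Rn45s (21.4%), 16 with 4000 genes above 0 (12.7%), 3 without Rn45s (12.3%) and 1 with sister pairs (5.27%), and 5 (without the lineage of CD8_83, 9.25%) to 13 (without that of CD8_1, 12.7%) with 1 lineage left out. The 9 calls in L1210 (12.9%) became 5 with detected genes as covariate (4.77%), 3 with 4000 genes above 0 (5.22%), 4 with sister pairs (5.41%), 4 with ranks without Rn45s (10%) and 3 (without the lineage of L1210_8, 4.91%) to 16 (without that of L1210_3, which holds L1210_15, 14.6%) with 1 lineage left out. With 4000 genes above 0 the share of variance between L1210 lineages turned negative for Cox7c (-0.0782), Uqcrq (-0.118), Ndufb3 (-0.0284) and Cox6a1 (-0.0236). The 0 calls for time stayed 0 in every setting. The median correlation between genes in CD8 (0.194) was 0.097 with detected genes and Rn45s removed, and 0.102 when cells of few genes were also left out. In L1210 (0.449) it was 0.245 with detected genes removed, 0.223 with both removed, and 0.0787, 0.0482 and 0.0479 for the same 3 values in cells with 4000 genes above 0. Settings on ranks without Rn45s, single lineages, genes of 100 TPM or more, Ndufs5 summed with BC002163 and correlations were added after seeing the data. The causes of these shifts were not tested. Read depth was not used, so a gene listed at 0 may have been missed.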
